A study of Mus musculus with 14 samples.

Results

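The genes described are 43 genes of the mouse cell cycle, 20 that act in S phase or prepare it and 23 that act in mitosis, measured in RNA from bone marrow cells with and without the MLL-AF9 oncogene. They were taken by name from a list, and all 43 were found among the 52550 genes of the count table. Of these, 40 had reads and passed the filter on low counts in every comparison. The other 3, Cdt1, Gins2 and Tk1, were listed at 0 in all 14 libraries.

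The 14 libraries fell into 3 groups. Normal cells were hematopoietic stem and progenitor cells (HSPCs), enriched by a commercial antibody set from femur and tibia marrow of C57BL/6 mice aged 8 to 20 weeks, with 4 libraries from wild type (WT) and 4 from Mir139KO mice, which lack the microRNA gene Mir139. The 6 MLL-AF9 libraries came from WT HSPCs grown overnight with the cytokines SCF, GM-CSF, IL-6 and IL-3, infected with a retrovirus that carries the fusion of MLL and AF9, selected with a drug and replated at least 2 times in methylcellulose. The vector carried the neo gene in 3 cultures and the puro gene in 3, so drug and vector cannot be told apart. By the protocol, HSPCs were lysed right after enrichment or went on into culture and infection. No HSPC culture without MLL-AF9 is among these samples, so culture and oncogene cannot be told apart either. The labels do not say whether replicates were separate mice or transductions, and p-values then measure only the spread between these samples. The design asks how the 3 groups differ, and the comparison of WT with Mir139KO HSPCs asks what the microRNA gene does in normal cells.

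A dividing cell first loads the Mcm helicase on its origins of replication, then copies its DNA in S phase, and then separates the copies on the mitotic spindle. Cyclin-dependent kinases drive each step, and E2F transcription factors switch on many S phase genes, whereas B-Myb and FoxM1 act with the MuvB complex on mitotic genes. Transcripts of both sets are low in resting cells and high in cycling ones, so they are widely read as a sign of proliferation in blood progenitors and in leukemia. In bulk RNA, fewer cycling cells and less RNA of these genes per cell cannot be told apart.

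Libraries held 35016668 to 45877994 counts. The noncoding RNA Gm26917 took 7.55% to 10.4% of them in the MLL-AF9 cultures and divided the HSPC libraries: WT 1, WT 2, KO 2 and KO 3 had 17.0% to 21.9%, and WT 3, WT 4, KO 1 and KO 4 had 32.7% to 35.4%. These are called low-share and high-share libraries here, and each class holds 2 WT and 2 Mir139KO libraries. Mir139 was listed at 0 in every library, so that the knockout could not be checked. Many markers of other marrow cells were lower in the cultures: 10 of 11 erythroid markers fell against WT HSPCs. Their summed level was 1497 to 2263 CPM in WT, 1756 to 2494 CPM in Mir139KO and 67.2 to 209.8 CPM in MLL-AF9, and Hba-a2 and Hbb-bs were at 0 in all 6 cultures. All 5 mast cell and basophil markers fell too, from 532 to 1539 CPM in WT and 1046 to 1528 CPM in Mir139KO to 4.38 to 19.1 CPM. Of 9 neutrophil markers, 4 fell and 0 rose, and of 6 monocyte and macrophage markers, 3 fell and 1 rose. The monocyte and macrophage sums overlapped, at 880 to 1641 CPM in WT and 257 to 1012 CPM in MLL-AF9. Of 5 plasma cell markers, 4 fell and 1 rose. Of 10 HSPC markers, 6 fell and 1 rose. Over all genes tested against WT, 29.4% fell and 32.8% rose. Whether cell makeup shifted, and its part in the results, was not tested.

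Levels are given as CPM, a library's counts scaled to its depth with TMM factors over the 14 libraries. They are not divided by gene length, so they compare libraries and not genes. Differences are log2 fold changes, written with ± their SE, from edgeR's quasi-likelihood test, with Benjamini-Hochberg adjustment over all genes tested, and a gene is called higher or lower where the adjusted p is under 0.05.

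In MLL-AF9 cultures, the cell cycle genes as a group lay below WT HSPCs. Of the 40 measured, 21 fell, 4 rose and 15 did not pass the test, where 32.8% of all 17077 genes tested were called higher and 29.4% lower. Their median log2 fold change was -1.18, against 0.14 over all genes tested. Among 17 S phase genes, 10 fell and 0 rose by edgeR's test, with 0 rises at an unadjusted p under 0.05, while DESeq2 called 12 lower and 0 higher and limma-voom 13 lower and 0 higher. Mitotic genes gave 11 falls and 4 rises among 23. The sums of the 43 genes were 6425 to 7750 CPM in WT HSPCs and 1091 to 5423 CPM in the cultures, which do not overlap at this TMM scaling. As plain shares of library counts, they were 0.471% to 0.743% in WT and 0.153% to 0.660% in the cultures, which overlap.

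**Figure D1:**
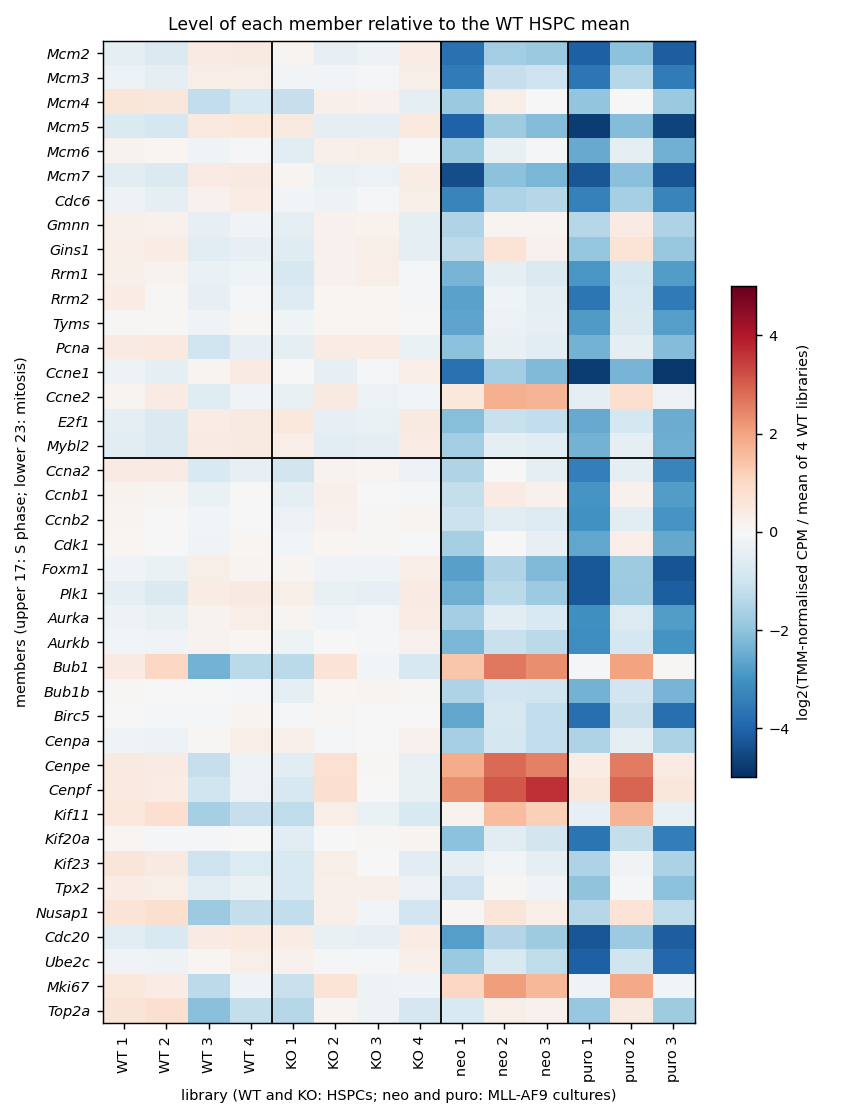
Each row is 1 of the 40 measured genes and each column 1 library; colour gives log2 of the TMM-normalised CPM over the mean of the 4 WT libraries, with S phase genes above the horizontal line and mitotic genes below it. Mcm5, Mcm7 and Ccne1 are dark blue in the MLL-AF9 cultures, Cenpf, Cenpe and Bub1 are red, and puro 1 and puro 3 are the palest or bluest columns in nearly every row.

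Short motifs were counted in the promoters of the S phase and of the mitotic genes, with no test of a difference between them. RefSeq windows on GRCm38.p6 that run from 250 bases before to 50 bases after the transcript start were matched by symbol for 33 of the 43 genes. The forms TTTGGCGC or TTTCCCGC or TTTCGCGC or TTTGCCGC, spellings of the E2F motif, were present on either strand in the windows of 6 of 15 S phase genes (Mcm3, Mcm5, Mcm6, Mcm7, Cdc6 and Cdt1) and 1 of 18 mitotic genes (Cdk1), and in 2.26% of 32851 windows of all genes. The CHR motif TTTGAA, a cell cycle element of late genes, was in 13 of 18 mitotic and 1 of 15 S phase windows (Mcm2), and in 17.9% of all. The CCAAT box, spelled CCAAT, was in 16 mitotic and 8 S phase windows, and in 37.4% of all. Both CHR and CCAAT were in 13 mitotic windows, 1 S phase window and 6.95% of all. These are letter matches, not shown binding sites. For E2f1, Cdc6 and Mcm7 the windows lie wholly inside the annotated gene span, so a start farther upstream is not covered.

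The windows below are of 2 S phase genes with deep falls in the cultures, Mcm5 and Mcm7, of Cdk1, which has all 3 motifs, and of Cdc20, Cenpf and Mki67, mitotic genes that share the CHR and CCAAT letters although Cdc20 fell and the other two rose. Capitals mark every match on either strand (TTTGAA or its reverse TTCAAA, the box CCAAT or its reverse ATTGG, and the E2F forms or their reverse complements), and touching or overlapping matches run together. The coordinates are chr8:75109259-75109558 on the plus strand for Mcm5, chr5:138171834-138172133 for the first of the 2 Mcm7 windows, chr10:69352863-69353162 for Cdk1, chr4:118437294-118437593 for Cdc20, chr1:189688037-189688336 for Cenpf and chr7:135716330-135716629 for Mki67, all on the minus strand after Mcm5. Each is written 5′ to 3′ along its gene.
Mcm5: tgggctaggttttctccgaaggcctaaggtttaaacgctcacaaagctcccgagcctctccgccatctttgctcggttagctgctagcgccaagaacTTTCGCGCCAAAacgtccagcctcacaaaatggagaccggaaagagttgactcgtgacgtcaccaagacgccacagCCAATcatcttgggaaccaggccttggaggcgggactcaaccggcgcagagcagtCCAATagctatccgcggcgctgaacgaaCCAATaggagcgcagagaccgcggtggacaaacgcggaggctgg
Mcm7: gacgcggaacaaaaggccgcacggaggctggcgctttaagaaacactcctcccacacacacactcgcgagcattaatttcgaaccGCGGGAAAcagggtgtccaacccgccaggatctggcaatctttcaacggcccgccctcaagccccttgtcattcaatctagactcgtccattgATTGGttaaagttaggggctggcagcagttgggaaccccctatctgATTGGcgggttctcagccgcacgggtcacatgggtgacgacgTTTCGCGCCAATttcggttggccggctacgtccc
Cdk1: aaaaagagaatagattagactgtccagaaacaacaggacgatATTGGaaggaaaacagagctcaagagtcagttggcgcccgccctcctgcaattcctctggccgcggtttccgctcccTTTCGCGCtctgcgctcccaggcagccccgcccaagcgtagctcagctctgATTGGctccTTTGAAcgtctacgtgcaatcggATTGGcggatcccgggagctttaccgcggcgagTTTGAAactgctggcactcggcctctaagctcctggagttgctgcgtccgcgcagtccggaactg
Cdc20: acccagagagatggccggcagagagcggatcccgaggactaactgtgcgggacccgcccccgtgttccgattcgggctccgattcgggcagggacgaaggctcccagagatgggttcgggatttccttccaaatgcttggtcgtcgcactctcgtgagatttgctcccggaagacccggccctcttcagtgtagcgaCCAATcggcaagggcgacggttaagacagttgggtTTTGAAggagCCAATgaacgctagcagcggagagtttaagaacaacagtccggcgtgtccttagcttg
Cenpf: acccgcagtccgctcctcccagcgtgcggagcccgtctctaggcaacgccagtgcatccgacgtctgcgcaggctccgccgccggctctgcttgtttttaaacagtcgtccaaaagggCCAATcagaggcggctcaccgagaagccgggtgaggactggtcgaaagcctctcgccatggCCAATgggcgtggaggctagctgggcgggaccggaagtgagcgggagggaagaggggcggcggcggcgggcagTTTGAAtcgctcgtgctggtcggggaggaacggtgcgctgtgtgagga
Mki67: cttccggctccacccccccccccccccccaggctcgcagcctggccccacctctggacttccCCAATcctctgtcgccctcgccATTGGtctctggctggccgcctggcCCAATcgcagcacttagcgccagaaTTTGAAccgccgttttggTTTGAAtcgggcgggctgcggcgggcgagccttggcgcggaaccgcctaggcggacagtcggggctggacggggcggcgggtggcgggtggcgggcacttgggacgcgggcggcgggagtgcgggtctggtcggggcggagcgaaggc

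In the Mcm7 window, the E2F form nearest to the start runs into a CCAAT box. In the 4 windows of mitotic genes, the CHR nearest to the start follows at least 1 CCAAT box.

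The Mcm genes, which encode the 6-subunit ring that unwinds DNA at the fork, were among the genes with the deepest falls. Mcm7 was at 399.8, 354, 787 and 799.9 CPM in WT HSPC replicates 1 to 4 and, over the 6 MLL-AF9 cultures, at 26.8, 74.3 and 143 CPM at the lowest, median and highest. Mcm5 had 463, 421, 1085 and 1090.3 CPM in WT and 28.7, 108 and 226 CPM in the cultures. Mcm2 had 399, 343, 744 and 767 CPM in WT and 32.4, 89.5 and 167 CPM in the cultures. For all 3 genes, every culture lay below every WT library, and the high-share libraries WT 3 and WT 4 were above WT 1 and WT 2. Mcm5 and Mcm7 have E2F letters in the windows shown, Mcm6, described next, has them too, and Mcm2 lacks them. A link of these letters to the levels was not tested. The log2 fold changes were -2.89 ± 0.55 for Mcm7 (SE, adjusted p = 0.000813 by edgeR's quasi-likelihood test), -2.82 ± 0.61 for Mcm5 (adjusted p = 0.0018) and -2.61 ± 0.52 for Mcm2 (adjusted p = 0.00113), with 6 cultures and 4 WT libraries. Mcm3 fell too, with a value of -1.98 ± 0.54 (adjusted p = 0.00694).

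The other subunits of the same ring did not pass the test. Mcm6 was at 469, 449, 358 and 395 CPM in WT and 72.7, 207 and 401 CPM in the cultures, so the groups overlapped, and the difference was -0.99 ± 0.47 (adjusted p = 0.0822). Mcm4 was at -0.61 ± 0.54 on the log2 scale (adjusted p = 0.339), and its level was higher in WT 1 and WT 2 than in WT 3 and WT 4. Whether the subunits differed from each other was not tested.

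The genes that load the ring followed it in part. Cdc6, a loading ATPase, was at 138, 123, 192 and 212 CPM in WT and 15.8, 34.8 and 61.6 CPM in the cultures, with no overlap (-2.22 ± 0.44, adjusted p = 0.00106). Gmnn encodes geminin, which keeps Cdt1 from loading the ring a second time. It was at 41.7, 40.1, 26.1 and 30.6 CPM in WT and 11.8, 25.5 and 45.9 CPM in the cultures, the groups overlapped, and it did not pass the test (-0.42 ± 0.42, adjusted p = 0.403). Gins1, a subunit that activates the helicase, had a log2 fold change of -0.22 ± 0.54. Over the 9 licensing genes measured, 5 fell and 4 did not pass the test.

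Cdt1, Gins2 and Tk1 could not be read. Each lies with its whole span inside another annotated gene: Cdt1 and Gins2 in Gm20388, which received 73830 counts over the 14 libraries, and Tk1 in Gm20708, which received 2064. Of 1261 protein-coding genes with no base of their span outside other genes, 97.4% were at 0, against 14.4% of 17361 that had over 90% of their span to themselves. A listed 0 is therefore not a measure of these genes. Ccne2 has 58.1% of its span to itself, Kif20a 73.1%, Ube2c 81.4% and Ccna2 88.2%, and their counts may cover the gene in part.

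Of 4 measured genes for DNA building blocks and the clamp that holds the polymerase, 2 fell. Rrm2, the small subunit of ribonucleotide reductase, was at 268, 216, 155 and 194 CPM in WT and 17.0, 77.6 and 181 CPM in the cultures, which overlap, and it did not pass the test (-1.30 ± 0.62, adjusted p = 0.0846). Tyms, which makes thymidylate, was at 77.8, 78.1, 67.7 and 78.7 CPM in WT and 10.6, 28.9 and 61.8 CPM in the cultures, with no overlap but a wide spread among cultures (-1.23 ± 0.51, adjusted p = 0.0523). Pcna, the sliding clamp of the DNA polymerases, was at 225, 241, 86.2 and 127 CPM in WT and 32.7, 78.1 and 130.5 CPM in the cultures. Pcna passed at the edge (-1.12 ± 0.46, adjusted p = 0.0498). Rrm1, the large reductase subunit, fell as well (-1.39 ± 0.47, adjusted p = 0.0216).

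The cyclins split. Ccne1, a cyclin E that takes cells from G1 into S phase with Cdk2, was at 73.0, 62.1, 93.8 and 115 CPM in WT and 3.08, 11.8 and 26.3 CPM in the cultures, among the deepest falls with no overlap (-2.82 ± 0.57, adjusted p = 0.00113). Ccne2, the other cyclin E, was at 6.67, 8.15, 4.03 and 5.44 CPM in WT and 4.42, 9.65 and 20.7 CPM in the cultures. Its log2 fold change was positive and did not pass the test (0.90 ± 0.47, adjusted p = 0.113), and it turned to -1.35 with GC correction, past the threshold.

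Cyclin A2 and cyclin B genes, which pair with Cdk1 from late S phase to mitosis, passed the test in 1 of 3 cases. Ccna2 was at 147, 145, 65.6 and 82.4 CPM in WT and 10.4, 59.2 and 109 CPM in the cultures (-1.03 ± 0.59, adjusted p = 0.146). Ccnb1 was at 96.7, 93.9, 68.3 and 84.7 CPM in WT and 11.0, 69.3 and 114 CPM in the cultures (-0.49 ± 0.59, adjusted p = 0.49). Cdk1, the mitotic kinase itself, was at 148, 138, 125 and 147 CPM in WT and 22.8, 74.9 and 176 CPM in the cultures (-0.75 ± 0.52, adjusted p = 0.224). None of these 3 genes passed the test, and for Ccnb1 and Cdk1 the highest culture was above every WT library. Ccnb2 passed narrowly (-1.17 ± 0.47, adjusted p = 0.0437).

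All 3 transcription factors on the list fell. Foxm1, an activator of mitotic genes, was at 119, 107, 163 and 146 CPM in WT and 6.72, 24.7 and 46.8 CPM in the cultures (-2.47 ± 0.50, adjusted p = 0.00118). E2f1, an activator of S phase genes, was at 58.4, 48.0, 102 and 109 CPM in WT and 13.9, 26.0 and 42.7 CPM in the cultures (-1.61 ± 0.38, adjusted p = 0.00327). Mybl2, which encodes B-Myb, was at 105, 90.2, 199 and 207 CPM in WT and 27.6, 74.2 and 111 CPM in the cultures (-1.12 ± 0.45, adjusted p = 0.0454). Foxm1 and E2f1 showed no overlap of the groups, whereas the Mybl2 cultures reached above WT 1 and WT 2.

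Among the mitotic kinases, 4 fell and 1 rose. Plk1, which acts from mitotic entry to exit, was at 142, 122, 259 and 276 CPM in WT and 10.5, 46.8 and 79.1 CPM in the cultures (-2.29 ± 0.53, adjusted p = 0.00281). Aurkb, the kinase of the chromosomal passenger complex, was at 117, 112, 143 and 137 CPM in WT and 15.0, 37.8 and 70.1 CPM in the cultures (-1.73 ± 0.42, adjusted p = 0.00349). Neither gene overlapped between the groups. Aurka, the centrosome kinase, and Bub1b, a spindle checkpoint gene, fell too (-1.31 and -1.43, adjusted p = 0.0268 and 0.00193). Bub1, a checkpoint kinase at kinetochores, was at 18, 27.6, 2.57 and 5.29 CPM in WT and 12.9, 44.3 and 83.1 CPM in the cultures and rose (1.70 ± 0.70, adjusted p = 0.0493). WT 1 and WT 2 lay within the range of the cultures for Bub1, and WT 3 and WT 4 far below it.

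Centromere genes went both ways. Cenpf, a large kinetochore protein of the G2 and M phases, was at 23.6, 21.4, 8.31 and 13.6 CPM in WT and 24.9, 105 and 209 CPM in the cultures, the largest rise of the 40 (2.58 ± 0.62, adjusted p = 0.00351). Every culture was above every WT library for Cenpf, though puro 1 and puro 3, both at 24.9 CPM, were close to WT 1. Cenpe, a kinetochore kinesin, was at 30.0, 29.2, 9.77 and 18.1 CPM in WT and 28.0, 102 and 153 CPM in the cultures (2.03 ± 0.54, adjusted p = 0.00635). Birc5, the passenger protein survivin, was at 93.5, 89.4, 86.2 and 101 CPM in WT and 6.71, 27.3 and 52.4 CPM in the cultures and fell (-1.80 ± 0.53, adjusted p = 0.011). Cenpa, the histone H3 variant of centromeres, was at 109, 101, 131 and 157 CPM in WT and 39.9, 48.0 and 88.6 CPM in the cultures, with no overlap (-1.20 ± 0.28, adjusted p = 0.00264). Cenpf, Cenpe and Cenpa were chosen for display by their place in the ranking of fold changes.

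Of the 5 spindle genes, 1 fell. Kif11, the kinesin that pushes the poles apart, was at 90.4, 110.0, 19.8 and 28.2 CPM in WT and 46.1, 105 and 204 CPM in the cultures (0.86 ± 0.57, adjusted p = 0.204). Kif20a, a kinesin of cytokinesis, was at 96.0, 83.5, 86.0 and 91.7 CPM in WT and 7.13, 30.2 and 61.2 CPM in the cultures and fell (-1.57 ± 0.52, adjusted p = 0.0189). Nusap1, a spindle microtubule protein, was at 62.6, 69.1, 11.3 and 17.7 CPM in WT and 14.9, 46.0 and 64.1 CPM in the cultures, with a log2 fold change of 0.03 ± 0.55. The cultures fell between the WT libraries for Nusap1. Kif23, which acts in cytokinesis, and Tpx2, a spindle assembly factor, had log2 fold changes of -0.64 ± 0.40 and -0.68 ± 0.43 and did not pass.

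Both partners of the anaphase promoting complex, the ligase that ends mitosis, fell. Cdc20, its activator, was at 128, 113, 253 and 264 CPM in WT and 9.89, 40.6 and 68.9 CPM in the cultures (-2.37 ± 0.53, adjusted p = 0.00237). Ube2c, its ubiquitin-conjugating enzyme, was at 116, 109, 142 and 159.5 CPM in WT and 7.79, 45.3 and 78.0 CPM in the cultures (-1.69 ± 0.56, adjusted p = 0.0195). All 6 cultures lay below all 4 WT libraries for both, although Cdc20 and Cenpf hold the same 2 motifs in the windows shown.

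The proliferation marker Mki67, whose protein coats mitotic chromosomes, went up. It was at 294, 266, 82.3 and 176 CPM in WT and 175, 534 and 865 CPM in the cultures (1.29 ± 0.52, adjusted p = 0.0446). Top2a, the topoisomerase that untangles sister chromatids, was at 542, 612, 81.1 and 153 CPM in WT and 93.5, 303 and 477 CPM in the cultures (-0.31 ± 0.60, adjusted p = 0.667). For both genes the puro 1 and puro 3 cultures lay within the range of the WT libraries, where WT 1 and WT 2 were above WT 3 and WT 4.

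Without overlap between groups, 20 of the 40 genes had all cultures below all WT libraries, where 24.5% of all genes tested did, and 1 had all cultures above, Cenpf, where 26.0% did. The call held whichever library was left out for 18 of the 25 genes called, 16 that fell and 2 that rose (Cenpe and Cenpf). Bub1 lost its call without WT 1, WT 3, WT 4, neo 1, neo 2, neo 3 or puro 2, and Mki67 without WT 2, WT 3, WT 4, neo 1, neo 2, neo 3 or puro 2. Ccnb2 lost it without any of the 4 WT libraries, neo 1, puro 1 or puro 3, and Pcna without WT 1, WT 2, WT 4, neo 1, puro 1 or puro 3. Mybl2 lost it without WT 3, WT 4, neo 1, puro 1 or puro 3, Aurka without WT 3, WT 4 or neo 1, and Rrm1 without WT 1.

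Which WT libraries served as the control changed the rises. Against the low-share libraries WT 1 and WT 2 alone, 0 genes rose and 11 fell by edgeR's test, where 21.0% and 20.8% of all genes did. In that fit 19 of the 40 had an unadjusted p under 0.05, as did 9641 of all 18331 genes. Against WT 3 and WT 4 alone, 5 rose and 17 fell, where 33.0% and 29.8% of all genes did. With a correction for GC content, 1 rose (Cenpf) and 23 fell, where 31.3% and 27.2% of all genes did. Of the 21 falls, 9 were called in each of these 3 settings but not in the fit with both, described next: Mcm2, Mcm5, Mcm7, Cdc6, Ccne1, Foxm1, Aurkb, Bub1b and Cenpa. With both, against WT 1 and WT 2 alone and with GC correction, 3 fell (Rrm1, Pcna and Kif23) and 0 rose by edgeR's test, where 15.6% of 18331 genes fell and 19.1% rose, and 14 of the 40 had an unadjusted p under 0.05, where 47.2% of all genes did. Bub1 had log2 fold changes of 0.89 against WT 1 and WT 2 and 3.35 against WT 3 and WT 4, and 0.56 with GC correction.

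**Figure D2:**
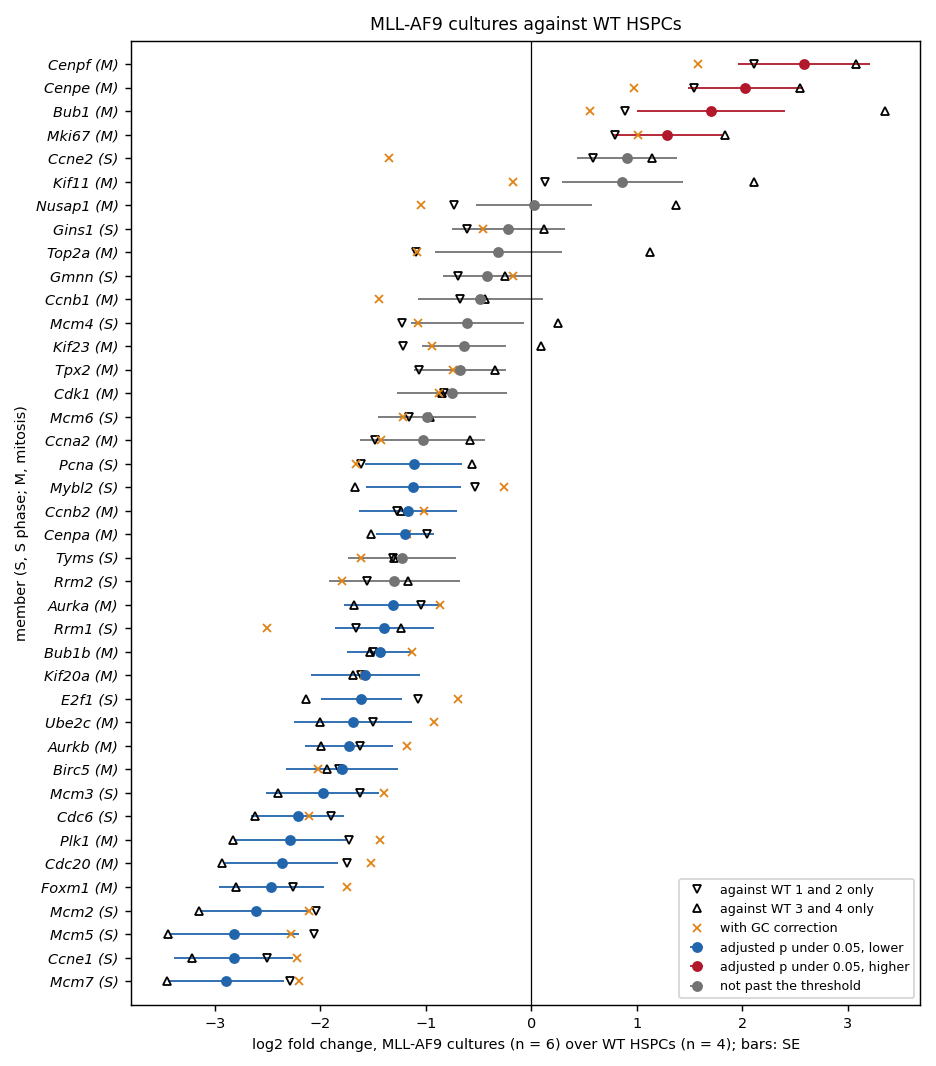
Log2 fold change of each of the 40 genes in 6 MLL-AF9 cultures over 4 WT HSPC libraries, with bars of 1 SE and colour for calls at an adjusted p under 0.05. Triangles give the same value against WT 1 and 2 only or WT 3 and 4 only and crosses the value with GC correction: Mcm7, Ccne1 and Mcm5 stay at -2 or below in all 4 estimates, and Bub1 runs from 0.56 to 3.35.

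Many of these genes differed between the 2 classes of HSPC libraries. In high-share libraries, 25 of the 40 had a lower mean and 15 a higher mean than in low-share libraries, 17 and 12 of them without overlap of the 4 libraries in each class. Over all 15056 genes tested, 34.9% lay lower and 30.1% higher in the high-share libraries without overlap. The ratio of high-share to low-share mean ran from 0.264 for Bub1 to 2.14 for Mcm5. It rose with the GC content of the transcript sequence (Pearson r = 0.83 across the 40 genes, a description, since the genes share the same 8 libraries). Mean GC content was 49.0% for the S phase genes and 48.0% for the mitotic genes. Whether RNA quality, a batch or the cells account for the split was not tested.

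**Figure D3:**
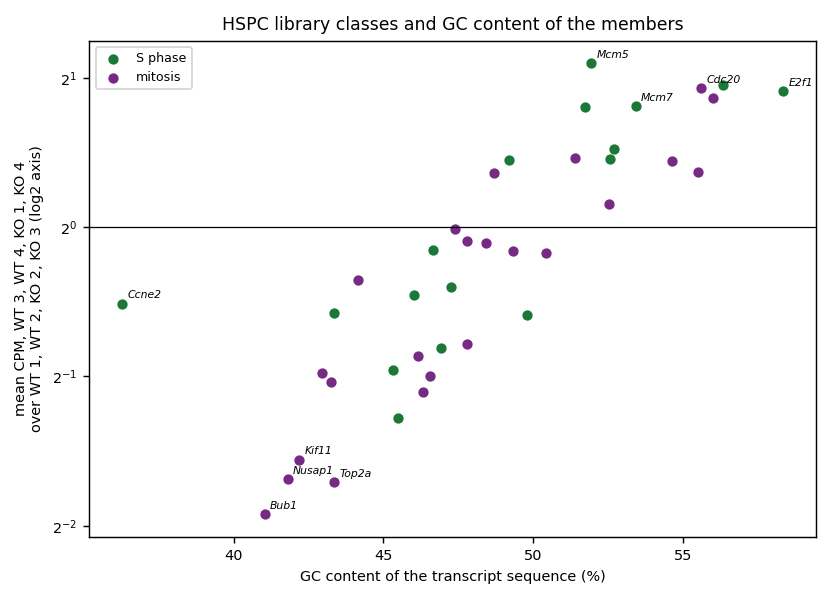
Each point is 1 of the 40 genes; the horizontal axis gives the GC content of its longest transcript in percent, and the vertical axis, on a log2 scale, its mean CPM in the 4 high-share HSPC libraries over that in the 4 low-share ones. Bub1, Top2a, Nusap1 and Kif11 lie lowest at the GC-poor end, and Mcm5 and E2f1 near 2 at the GC-rich end.

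The sums of the S phase and of the mitotic genes were also set side by side. The median log2 fold change against WT was -1.30 over the S phase and -1.03 over the mitotic genes tested, and Mki67 and Top2a, which are among the mitotic genes, weigh heavily in their sum. The S phase genes summed to 3475 to 5136 CPM in WT, 3944 to 5068 CPM in Mir139KO and 433 to 2202 CPM in MLL-AF9 libraries. The mitotic genes summed to 2255 to 3022 CPM in WT, 2189 to 2905 CPM in Mir139KO and 658 to 3221 CPM in MLL-AF9 libraries, where the groups overlap. The ratio of the mitotic to the S phase sum was 0.463 to 0.849 in WT, 0.518 to 0.736 in Mir139KO and 1.30 to 2.62 in MLL-AF9 libraries. All 6 cultures were above all 8 HSPC libraries, with no test made on these sums. Within the HSPCs, the ratio was 0.620 to 0.849 in low-share and 0.463 to 0.530 in high-share libraries. Among the cultures, neo 1 had the highest ratio and neo 3 the lowest.

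**Figure D4:**
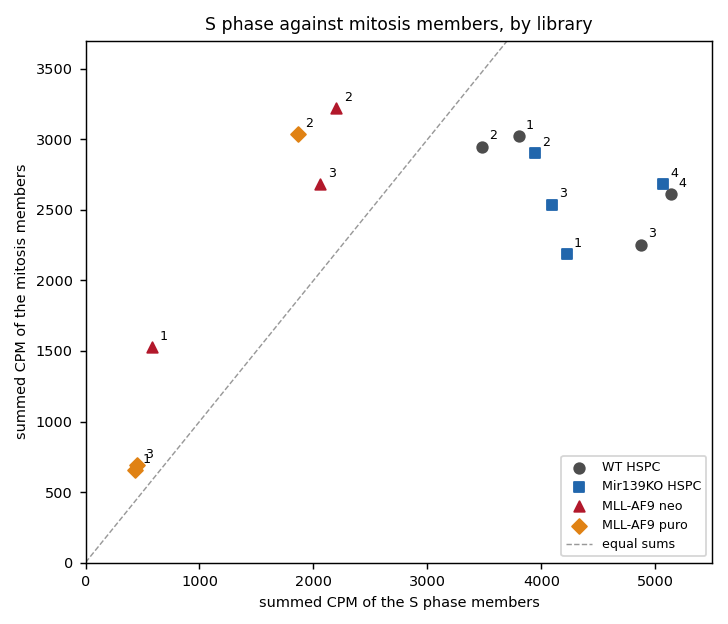
Each point is 1 library, with the summed CPM of the S phase genes on the horizontal axis and of the mitotic genes on the vertical axis; numbers are replicates and the dashed line marks equal sums. The 6 MLL-AF9 cultures lie left of the line and the 8 HSPC libraries right of it, with puro 1 and puro 3 nearest to the origin.

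The summed level spread more over the 6 cultures than over the HSPC libraries. Over the 43 genes, puro 1 had 1091, puro 3 1146, neo 1 2110, neo 3 4746, puro 2 4901 and neo 2 5423 CPM, a 4.97-fold range, where the 8 HSPC libraries spanned 1.21-fold. For all 40 measured genes, neo 2, neo 3 and puro 2 were each above the other 3 cultures, a pattern that 27.4% of 16503 genes showed. The highest culture had 2.22 to 10.7 times the CPM of the lowest, with a median of 5.50. Over the 8 HSPC libraries the median was 2.11, and 5 of the 40 genes (Bub1, Kif11, Kif23, Nusap1 and Top2a) spanned more there than over the cultures. The cultures were not divided by vector, since puro 2 stood with neo 2 and neo 3.

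Single genes differed in which culture was highest. Top2a was at 207, 429, 399, 93.5, 477 and 100.2 CPM in neo 1, neo 2, neo 3, puro 1, puro 2 and puro 3. Ube2c was at 36.2, 78.0, 54.4, 7.79, 66.1 and 8.68 CPM and Mcm5 at 45.8, 226, 169.6, 28.7, 169.6 and 30.5 CPM in the same order of cultures. Neo 1 stood between for 35 of the 40 genes, above both puro 1 and puro 3, and for the mitotic genes it was farther from them (1526 against 658 and 690 CPM) than for the S phase genes (584 against 433 and 455 CPM). Cenpa, which varied least, was at 39.9, 67.3, 53.7, 42.2, 88.6 and 41.2 CPM.

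The Gm26917 share did not follow this order: it was 7.55%, 9.14% and 10.4% in puro 1, puro 3 and neo 1, and 9.30%, 10.0% and 8.70% in neo 3, puro 2 and neo 2. HSPC markers summed to 1084 and 1074 CPM in puro 1 and puro 3, 555 CPM in puro 2 and 181 to 333 CPM in the neo cultures, and their part in the result was not tested. The libraries puro 1 and puro 3 were the closest pair of cultures, with a Pearson r of 0.998 across genes. Their counts differed by 9.0 times the sampling noise (chi-square per degree of freedom), and they were kept as 2 samples. This value cannot show that they were independent cultures, since 2 libraries of 1 culture can also differ by more than sampling noise.

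**Figure D5:**
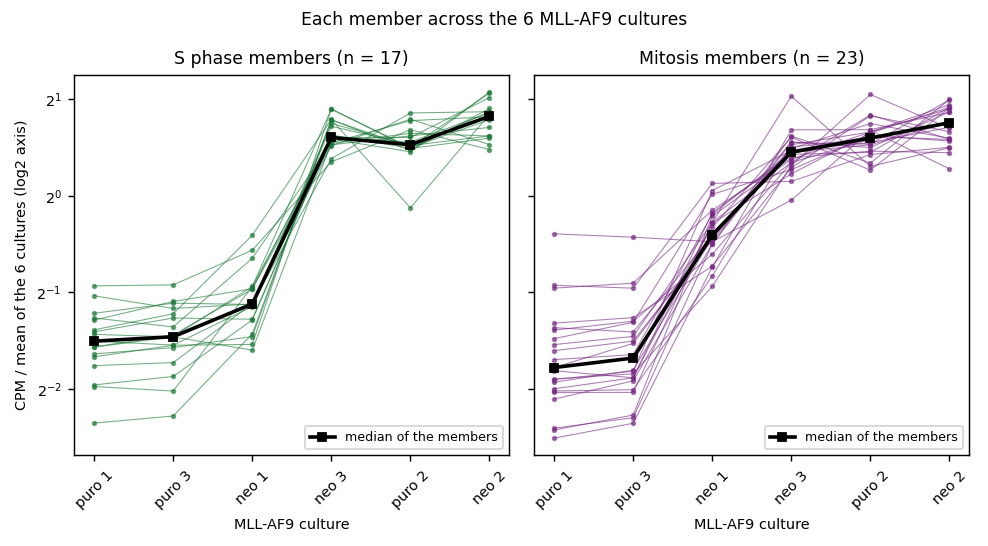
Each thin line is 1 gene, with its CPM over its mean in the 6 MLL-AF9 cultures on a log2 axis; the cultures are ordered by the sum over all genes and the thick line is the median. Lines rise from puro 1, puro 3 and neo 1 to neo 3, puro 2 and neo 2 in both panels, and the lines only join values of the same gene.

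Puro against neo, the comparison of the 2 vectors, gave no call. By edgeR's test, 0 of 40 genes rose and 0 fell, where 0.564% of 16503 genes were called higher and 0.309% lower. An unadjusted p under 0.05 came for 1 of the 40, Ccne2, by edgeR, where 2259 of 16503 genes had one. It came for 3 by DESeq2 and 4 by limma-voom, where 2891 and 2175 of 16503 genes had one, and both called 0 of the 40. The log2 fold change was negative for 39 of the 40, with a median of -0.91 against -0.02 over all genes, SEs of 0.34 to 0.93 and a lowest adjusted p of 0.276. Without puro 2, 16 of the 40 genes were called lower in puro, where 1.92% of 17222 genes were called lower and 3.83% higher, among them Plk1, Foxm1, Cdc20, Top2a and Mki67, with the 2 remaining puro cultures the closest pair.

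The largest differences between the vectors were not past the test. Cenpf was at 84.4, 144, 209, 24.9, 126 and 24.9 CPM in neo 1, neo 2, neo 3, puro 1, puro 2 and puro 3 (log2 fold change -1.36 ± 0.69). Ccne2 was at 8.70, 20.7, 20.0, 4.42, 10.6 and 4.95 CPM (-1.33 ± 0.46) and Kif20a at 21.7, 61.2, 47.1, 7.13, 38.8 and 8.13 CPM (-1.32 ± 0.71). At the other end were Cenpa (0.07 ± 0.34), Gmnn (-0.36 ± 0.64) and E2f1 (-0.37 ± 0.50). In each of the first 3 genes puro 2 was above the other 2 puro cultures.

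Each vector was also set against WT HSPCs on its own. With the 3 neo cultures alone, 16 genes fell and 5 rose, where 26.4% and 27.9% of 16856 genes did. With the 3 puro cultures alone, 22 fell and 1 rose, where 26.5% and 27.6% of 16673 genes did. The 2 counts share the WT libraries, and the difference in rises was not tested.

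Against the 4 Mir139KO HSPC libraries, which share the 6 cultures with the comparison above, 22 genes fell, 5 rose and 13 did not pass, with 31.9% of 16953 genes called lower and 37.3% higher. Scaling by total counts instead gave 12 falls and 6 rises, where 3212 and 8011 of 16953 genes fell and rose. Kif11 and Tyms passed the test here and did not pass it against WT. All cultures were below all Mir139KO libraries for 19 genes (27.9% of all genes tested) and above for none (30.1%).

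The deepest falls were in Mcm5, Mcm7 and Ccne1. Mcm5 was at 1051, 558, 564 and 1066 CPM in Mir139KO replicates 1 to 4, and fell in the cultures by 2.91 on the log2 scale (SE 0.58, adjusted p = 0.000765 by edgeR's test). Mcm7 was at 640.2, 469.7, 475 and 748 CPM (-2.89 ± 0.52, adjusted p = 0.000335) and Ccne1 at 85.2, 64.8, 80.2 and 109.6 CPM (-2.81 ± 0.55, adjusted p = 0.000672). Every culture was below every Mir139KO library in these 3 genes.

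Rises against Mir139KO were in mitotic genes. Cenpf was at 9.56, 28.8, 17.2 and 12.8 CPM in Mir139KO (2.54 ± 0.62, adjusted p = 0.0028). Cenpe was at 15.3, 37.0, 22.4 and 17.0 CPM (1.94 ± 0.51, adjusted p = 0.00475), and Bub1 at 5.29, 21.0, 12.2 and 7.65 CPM (1.90 ± 0.58, adjusted p = 0.0105). Mki67 was at 94.5, 329, 169.5 and 178 CPM (1.36 ± 0.50, adjusted p = 0.0275). KO 2 reached above puro 1 and puro 3 in Cenpf, Cenpe, Bub1 and Mki67, so the groups overlapped. Kif11 was at 26.0, 75.6, 48.9 and 36.4 CPM (1.26 ± 0.48, adjusted p = 0.0315) and lost its call without KO 1, KO 3, KO 4, neo 2 or puro 2. Mki67 lost it without KO 1, KO 3, KO 4 or neo 2.

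The falls against Mir139KO that hung on 1 library were few. Tyms was at 65.4, 81.2, 81.6 and 75.5 CPM in Mir139KO (-1.24 ± 0.51, adjusted p = 0.0434) and lost its call without any of the 4 Mir139KO libraries, neo 1, puro 1 or puro 3. Pcna was at 119.7, 217, 221 and 134 CPM and lost it without KO 2, KO 3 or neo 1. Mybl2, at 191, 105, 109 and 195 CPM, lost it without KO 1, KO 4 or neo 1. Ccnb2 lost it without KO 2, KO 3 or KO 4, and Rrm1 without KO 2 or KO 3. The other 20 of the 27 calls, 17 falls and 3 rises, held whichever library was left out.

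Other S phase genes ranged in Mir139KO HSPCs as follows. Mcm2 was at 621, 428, 469 and 728 CPM in replicates 1 to 4, Mcm6 at 291, 497, 507 and 412 CPM and Cdc6 at 150.4, 139, 156 and 203 CPM. Rrm2 was at 133, 221, 222 and 195 CPM, Gmnn at 25.6, 40.3, 38.7 and 24.6 CPM and Ccne2 at 4.69, 8.35, 4.91 and 5.52 CPM. In Mcm2, the high-share libraries KO 1 and KO 4 were above KO 2 and KO 3, and in Rrm2 and Gmnn they were below them.

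Mitotic genes in Mir139KO differed in which libraries were highest. Cdc20 was at 247, 148, 142 and 246 CPM, Plk1 at 242, 154, 151 and 263 CPM and Foxm1 at 145, 117, 116 and 170.3 CPM, with KO 1 and KO 4 the highest. Aurkb was at 106, 127, 124 and 148 CPM, Birc5 at 88.8, 95.6, 93.7 and 92.6 CPM and Cdk1 at 128, 149, 144 and 143 CPM, with KO 1 the lowest in each. Ccna2 was at 58.9, 124, 122 and 88.9 CPM and Ccnb1 at 62.8, 101, 87.6 and 80.7 CPM, with KO 1 the lowest of the 4 in both.

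In Mir139KO against WT HSPCs, no cell cycle gene was called. By edgeR's test 0 of 40 rose and 0 fell, as did 0.0% of 15056 genes in either direction. An unadjusted p under 0.05 came for 0 of the 40 by edgeR, DESeq2 or limma-voom, and each called 0. Over all 15056 genes it came for 86, 90 and 76 in the same order. The log2 fold changes lay between -0.48 and 0.12, with SEs of 0.18 to 0.71. A test that does not pass does not show that the levels were equal.

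The 3 lowest and 3 highest log2 fold changes of this comparison follow. Top2a was at 542, 612, 81.1 and 153 CPM in WT and 131, 382, 289 and 192 CPM in Mir139KO (-0.48 ± 0.61). Kif11 (-0.41 ± 0.56) and Nusap1, at 17.2, 47.6, 36.8 and 20.7 CPM in Mir139KO (-0.40 ± 0.59), followed. E2f1, at 114, 60.3, 63.5 and 108 CPM in Mir139KO (0.12 ± 0.35), Cenpa, at 149.7, 120.0, 123 and 144 CPM (0.10 ± 0.22), and Ube2c, at 153, 126, 123 and 157 CPM (0.08 ± 0.21), were highest. In all 6 genes the 2 groups overlapped. Between the low-share libraries alone, WT 1 and WT 2 against KO 2 and KO 3, 10 of the 40 had an unadjusted p under 0.05, as 21.0% of 15640 genes did, and 0 were called by edgeR.

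Other genes of the same pathways, from 9 lists of 150 genes, 144 of them tested, gave a mixed picture in MLL-AF9 cultures: 34 rose, 50 fell and 60 did not pass against WT, and 44 rose and 51 fell against Mir139KO. The shares over all genes, given above, were 32.8% higher and 29.4% lower against WT and 37.3% and 31.9% against Mir139KO. Their median log2 fold change against WT was -0.27, against 0.14 over all genes. In nucleotide synthesis and S phase chromatin, 6 of 10 fell and 4 did not pass, with Uhrf1, which helps to maintain DNA methylation, at -2.23 on the log2 scale. Origin and replisome genes gave 15 falls and 5 rises among 33, from -2.79 for Pold1, the catalytic subunit of polymerase delta, to 3.46 for Orc4 of the origin recognition complex. In Cdk1 control, 4 of 9 fell, led by the phosphatase gene Cdc25b (-2.43), and 5 did not pass.

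The regulators of G1 moved in both directions, as did genes at large, of which 32.8% rose and 29.4% fell against WT. Of 13 G1 cyclins, Cdks and Cdk inhibitors, 5 rose and 5 fell: Cdkn1a, the inhibitor p21, was at a mean of 151 ± 68.5 CPM in the cultures (SD, n = 6) and 19.0 ± 4.74 CPM in WT (SD, n = 4; log2 fold change 2.98 ± 0.40, adjusted p = 8.88e-05 by edgeR's test), and Ccnd1, cyclin D1, fell by 3.05 on the log2 scale (SE 0.32, adjusted p = 1.41e-05). Of 16 E2F, DREAM and pocket protein genes, 5 rose, with Rb1, the retinoblastoma gene, at 2.76, and 5 fell, with E2f4, the repressor E2F of resting cells, at -2.33. Kinetochore and spindle checkpoint genes gave 5 rises (Cenpk, 2.64) and 3 falls (Spc24, -2.85) among 15. Condensin, cohesin and separase genes gave 6 rises (Stag2, 3.18) and 4 falls (Ncapd2, -2.42) among 15. Spindle and cytokinesis genes gave 4 rises (Kif20b, 2.15) and 7 falls (Kif22, -2.06) among 19, and replication stress and homologous recombination genes 4 rises (Atr, 2.49) and 1 fall (Rad54l, -1.31) among 14. Uhrf1, Cenpk and Kif20b lost their calls with GC correction and against WT 1 and WT 2 alone, and the other genes named here kept theirs in both.

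Between the vectors, 1 gene of these lists was higher and 1 lower in puro. Cdkn2c, the Cdk4 and Cdk6 inhibitor p18, was at a mean of 101 ± 14 CPM in puro and 7.28 ± 1.91 CPM in neo cultures (SD; log2 fold change 3.80 ± 0.30, adjusted p = 0.00861 by edgeR's test, n = 3 each). It lost this call without neo 2, neo 3, puro 1 or puro 3 (adjusted p = 0.0721, 0.0611, 0.0626 and 0.0531 by edgeR's test) and with puro 1 and puro 3 summed (0.0547). Cdkn1c, the inhibitor p57, named after its values were seen, was at 0.792 ± 0.250 CPM in puro and 6.02 ± 0.731 CPM in neo cultures (SD, n = 3 each; log2 fold change -2.91 ± 0.41, adjusted p = 0.0354 by edgeR's test). Without neo 2 or without neo 3, edgeR called 0 of all genes between the vectors, and without puro 3 it called 0 lower. Cdkn1c therefore lost its call in each of these fits. By edgeR, 0 of 142 pathway genes were called between Mir139KO and WT HSPCs, 0 of them had an unadjusted p under 0.05 by edgeR, and DESeq2 and limma-voom called 0 of all 15056 genes.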

How the data were processed

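RNA-seq counts of 14 mouse libraries (ribosomal RNA depletion, NovaSeq) were analysed. Per the submitters' processing notes, reads were checked with FastQC 0.11.8, aligned with STAR 2.5.3e and counted with featureCounts 1.6.0 on GRCm38. The deposited values are whole-number counts per gene, not normalized by the authors. Strand settings are not given in the sources used here. The table used holds no column of another series, and 10 columns in a second table belong to other samples and were not used here.

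Groups came from the sample labels. Each of 4 comparisons was fitted to all its genes with at least 10 counts in as many libraries as the smaller group has, with edgeR 4.0.16 (TMM, robust quasi-likelihood test) in R 4.3.3 and Benjamini-Hochberg adjustment at 0.05. The filter passed the same 40 of 43 genes in every comparison. DESeq2 1.42.0, limma-voom (limma 3.58.1), other scalings and filters, a GC correction (a spline with 5 degrees of freedom), library classes (a Gm26917 share above or below 25%), a replicate block and leaving out each library were alternatives. GC correction within the library classes was added after seeing the data. Gene spans and GC content came from GENCODE M21 and promoter windows from RefSeq. Genes, lists and tests were chosen with earlier results of these data known. Genes for per-library values were a fixed set of 26, plus the 3 highest and 3 lowest log2 fold changes of each comparison. From each pathway list, the called gene with the largest rise and fall was named where its mean log2 CPM was at least 3. A count of 3, the floor taken for detection, is 0.0654 to 0.0857 CPM at these depths and covers counting error only.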

Additional observations from a re-analysis of the deposited data

Results flagged for a closer look

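Of 129 groups of 4 or 6 libraries examined for a library that stands apart from its group, 3 were marked, and chance marks about 1 in 20. Mcm3 was at 586 CPM in KO 4, with the next Mir139KO library at 446 CPM. Tyms was at 67.7 CPM in WT 3, with the next WT library at 77.8 CPM. The ratio of the mitotic to the S phase sum was 2.62 in the neo 1 culture, with the next culture at 1.63 and the lowest at 1.30.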

How the results depend on the processing

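In MLL-AF9 against WT HSPCs, the 4 rises became 1 with GC correction, alone or with the replicate block, 2 at an adjusted p under 0.01, 1 with the puro cultures only, 2 to 4 when 1 library was left out, and 0 against the low-share libraries, with or without GC correction, or against the high-share libraries with GC correction. The 21 falls became 12 with total-count scaling, where 3128 of 17077 genes fell and the median over all genes moved from 0.14 to 0.69. They became 13 at an adjusted p under 0.01 and 11 against the low-share libraries. Against the low-share and high-share libraries with GC correction they became 3 and 12, where 2854 of 18331 and 4432 of 18244 genes fell. They were 17 to 23 when 1 library was left out.

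Against Mir139KO HSPCs, the 5 rises became 1 with GC correction, alone or with the replicate block, 2 at an adjusted p under 0.01, 2 with the puro cultures only, 3 to 6 when 1 library was left out, and 0 against the low-share libraries, with or without GC correction, or against the high-share libraries with GC correction. The 22 falls became 12 with total-count scaling, which moved the all-gene median from 0.16 to 0.84, and 14 at an adjusted p under 0.01. Against the low-share and high-share libraries with GC correction they became 7 and 9, where 3547 of 18251 and 4101 of 18132 genes fell. They were 18 to 24 when 1 library was left out. Between puro and neo, the falls were 0 to 16 when 1 library was left out.

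The sign changed in 30 of 1200 refits of a single gene against WT and in 37 of 1200 against Mir139KO. The changes listed here had a call in the fit reported above or in the refit. Against WT, Ccne2 and Nusap1 were called only in the refits. Ccne2 went to -1.35 with GC correction, -1.26 with the block and GC correction and -1.58 against the high-share libraries with GC correction. Nusap1 went to -1.05 and -1.07 in the first 2 of these. Against Mir139KO, Ccne2 went to -1.37 and -1.30, Nusap1 to -0.97 and -1.04 and Kif11 to -0.072 and -0.24 with GC correction and with the block and GC correction. Kif11 was at -0.17 and the pathway gene Kif18a at -0.0072 against the low-share libraries with GC correction, and Top2a at -1.07 with the block and GC correction. Against Mir139KO, Kif11 and Kif18a were called in the fit reported above, and Ccne2, Nusap1 and Top2a only in the refits. The cause was not tested.

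With the replicate number as a block, 3 of the cell cycle genes rose and 22 fell against WT, where 5058 and 4242 of 17077 genes did. Against Mir139KO, 5 rose and 24 fell, where 6061 and 5394 of 16953 genes did, and 0 rose or fell in the other 2 comparisons. The numbers did not pair the samples: deviations of same-numbered libraries correlated at -0.71, 0.80, -0.74 and 0.65 between Mir139KO and WT and at 0.58, 0.47 and -0.45 between puro and neo, and not every library correlated best with its own number. In Mir139KO against WT, no call changed in any of 960 refits of a single gene, and the sign changed in 193 of them. DESeq2, limma-voom, RLE scaling, other count filters, the joint fit of all libraries and leaving out Gm26917 kept the counts of rises and falls within 1.5 times those given. A fold of 1 on the log2 scale as an added threshold did so as well.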
